A study of Homo sapiens with 3 samples.

Results

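A set of 10 genes that govern how much Wnt signal a cell receives was followed in KYSE140, a human cell line established from an oesophageal squamous carcinoma. They are the membrane ubiquitin ligases ZNRF3 and RNF43, the co-receptors LRP5 and LRP6, the Frizzled receptors FZD2, FZD6 and FZD7, the scaffolds AXIN1 and AXIN2, and the secreted inhibitor DKK1. Members were taken as the probe sets that the platform annotation gives 1 gene symbol, that of a member. This rule found all 10 genes, of 19775 genes compared, in 18 of 54675 probe sets. ZNRF3 entered the group because it was among the lowest genes under cisplatin, so the differences of the members from the untreated array are given as a description, with no test.

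Cisplatin-treated and untreated cells were compared. In the cisplatin group, KYSE140 cells were kept for 12 h in cisplatin, which forms crosslinks in DNA, at a concentration that the labels give as 10 mM (2 arrays, titled B1 and B2). That unit is open to doubt, since culture doses of cisplatin are as a rule micromolar. In the other, KYSE140 cells were left untreated (1 array). All cells grew in RPMI medium with serum and antibiotics, and total RNA was measured on Affymetrix oligonucleotide arrays. Separate cultures for B1 and B2 are not stated in the labels, so the spread between them may be technical, and both are set against the same single untreated array.

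Wnt proteins bind a Frizzled together with LRP5 or LRP6, and the occupied receptors draw AXIN to the membrane, which spares beta-catenin from destruction. ZNRF3 and RNF43 are brakes at this step: they ubiquitinate Frizzled receptors and so clear them from the cell surface, and R-spondins, acting through LGR receptors, remove the brakes. DKK1 blocks LRP5 and LRP6 from outside the cell, and AXIN2, RNF43 and ZNRF3 are themselves switched on by beta-catenin in many tissues, which makes them feedback inhibitors.

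The arrays differed from each other beyond the members, and this touches several results. Over all genes, log2 differences had an SD of 0.33 for B1 minus untreated, 0.60 for B2 minus untreated and 0.56 for B2 minus B1. The ratio of 3′ to 5′ control probe sets, a measure of RNA integrity, was 2.71 in B1, 2.48 in B2 and 2.57 in the untreated array for ACTB, and 1.002, 0.999 and 1.04 for GAPDH. The epithelial markers EPCAM (intensity 4503 and 4190 in B1 and B2, against 4545 untreated) and CDH1 (1965 and 2271, against 2186) were bright on every array. Squamous markers set B2 apart: KRT14, a basal keratin, had 276 in B1 and 2372 in B2, against 278 untreated, and its partner KRT5 1345 and 4251, against 1217. The squamous factor SOX2 was low in B1 instead (2416 and 5308, against 5656). Of 9 measured epithelial and squamous markers, 2 were higher and 2 lower in both cisplatin arrays, and their summed intensity was 21774 in B1, 33926 in B2 and 24569 in the untreated array. The leukocyte marker PTPRC (5.24 and 5.50, against 6.24) and the endothelial marker CDH5 (6.36 and 6.86, against 10.3) were near the bottom of the scale and lower under cisplatin. The brightest of each list were higher instead, CD79A of B cells (58.7 and 51.7, against 46.6) and the endothelial PECAM1 (55.1 and 49.6, against 40.9). These directions depend on the probe set. Of 5 probe sets of PTPRC, 2 were lower and 2 higher in both cisplatin arrays, and of 5 of PECAM1, 2 were lower and 3 higher. In either list 0 markers had a mean log2 level of at least 6. Summed intensities were 218 in B1, 210 in B2 and 190 in the untreated array for 7 leukocyte markers, 166, 162 and 139 for 7 endothelial markers, and 387, 479 and 356 for 9 fibroblast markers. In both cisplatin arrays 4 leukocyte, 4 endothelial and 5 fibroblast markers were higher and 2 of each list were lower. Among all genes 39.2% were higher and 27.4% lower in both. No marker has a listed value of 0, and the part of other cells, or of the keratin difference between B1 and B2, in the results below was not tested.

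Among the membrane ligases, ZNRF3 was about 4-fold lower in both cisplatin arrays, whereas its paralog RNF43 was lower in B1 and higher in B2. ZNRF3 had an intensity of 86.1 in B1 and 114 in B2, against 397 in the untreated array. The cisplatin arrays thus held 21.7% and 28.7% of the untreated intensity. Both lay below the untreated array, as in 27.4% of all genes. The log2 differences, each cisplatin array minus the untreated array, were -2.20 and -1.80, with a mean of -2.003 (SD 0.29, n = 2), or 4.01-fold lower. Counted from the lowest of 19775 genes, ZNRF3 stood at rank 9 in B1, at rank 243 in B2 and at rank 42 for the mean of both. A single probe set measures ZNRF3, so no second one bears on this value. In bulk RNA, fewer cells with a transcript and less of it per cell cannot be told apart.

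RNF43 had an intensity of 78.3 in B1 and 212 in B2, against 173 in the untreated array. B1 was the low array and B2 the high one, with the untreated value between them. The log2 differences were -1.14 and 0.29, with a mean of -0.42 (SD 1.02, n = 2), so the cisplatin arrays differed from each other by more than either did from the untreated one. In B1 it stood at rank 195 from the lowest, and in B2 at rank 14967. As for ZNRF3, 1 probe set measures it.

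**Figure D1:**
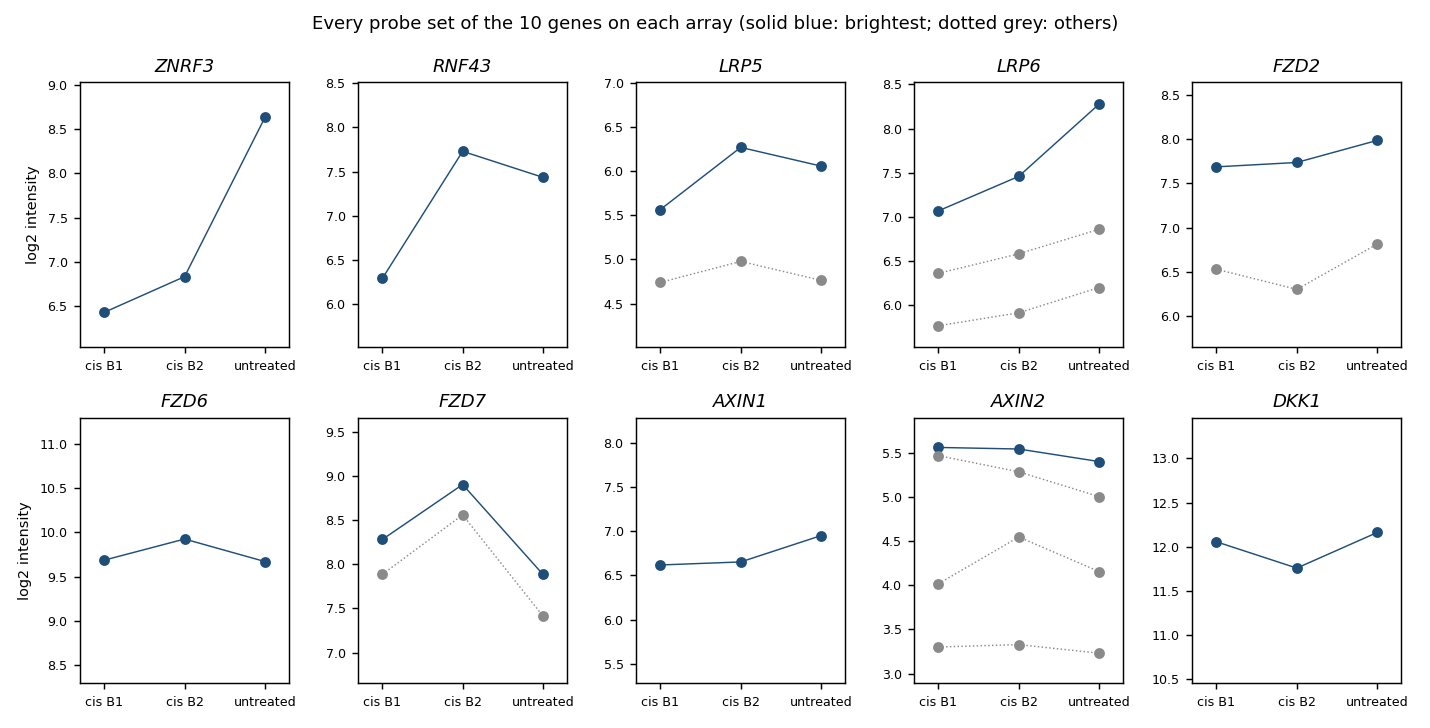
Log2 intensity (vertical axis, a separate range in each panel) of all 18 probe sets of the 10 genes on the cisplatin arrays B1 and B2 and on the untreated array. Lines join the values of 1 probe set; ZNRF3 and all 3 probe sets of LRP6 are lower in both cisplatin arrays, and both probe sets of FZD7 are higher.

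Of the co-receptors, LRP6 was lower in both cisplatin arrays and LRP5 was not. The brightest LRP6 probe set had an intensity of 134 in B1 and 176 in B2, against 310 in the untreated array. Its log2 differences were -1.21 and -0.82, with a mean of -1.01 (SD 0.28, n = 2), or 2.02-fold lower. The other probe sets of LRP6 lay on the same side with smaller differences. One had 82.3 and 95.9, against 116 untreated (mean log2 difference -0.39), and the other 54.6 and 60.4, against 73.6 untreated (-0.36). All 3 probe sets had their lowest value in B1 and their highest in the untreated array, and their mean log2 difference was -0.59.

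LRP5, which acts beside LRP6 and shares its ligands, had an intensity of 47.3 in B1 and 77.1 in B2, against 66.6 in the untreated array, on its brightest probe set. The log2 differences were -0.49 and 0.21, so the untreated value again lay between those of the cisplatin arrays. The other LRP5 probe set was below the median of all probe sets, 34.8 in the untreated array, with 26.7 and 31.5, against 27.2 untreated. No LRP5 probe set was on the same side of the untreated array in both cisplatin arrays.

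The 3 Frizzleds, the seven-pass receptors that ZNRF3 and RNF43 clear from the surface, went different ways. FZD7 was the member highest above the untreated array, with an intensity of 311 in B1 and 478 in B2, against 236 untreated. Its log2 differences were 0.40 and 1.02, with a mean of 0.71 (SD 0.44, n = 2), or 1.63-fold higher. Its other probe set had 236 and 377, against 170 untreated, a mean log2 difference of 0.81. Both probe sets had their highest value in B2 and their lowest in the untreated array. Counted from the highest gene, FZD7 stood at rank 1349 in B1 and at rank 574 in B2.

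FZD2, a close relative of FZD7, was slightly lower instead. Its intensity was 206 in B1 and 213 in B2, against 254 in the untreated array, a mean log2 difference of -0.27 (SD 0.035, n = 2). The other FZD2 probe set had 92.4 and 78.9, against 113 untreated, a mean log2 difference of -0.40. FZD6, which in several systems restrains beta-catenin signalling and acts in planar polarity, had 824 and 973, against 815 untreated. Its log2 differences were 0.02 in B1 and 0.25 in B2, so B1 lay almost at the untreated value.

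The scaffolds differed little from the untreated array. AXIN1, the constitutive core of the complex that marks beta-catenin for destruction, had an intensity of 98.2 in B1 and 101 in B2, against 124 untreated, a mean log2 difference of -0.31 (SD 0.024, n = 2). AXIN2, the feedback scaffold and a common readout of beta-catenin activity, had 47.1 and 46.6, against 42.2 untreated, on its brightest probe set, a mean log2 difference of 0.15 (SD 0.013, n = 2). Its 4 probe sets had mean log2 differences from 0.083 to 0.37, and 3 of the 4 were higher in both cisplatin arrays. All 4 were dim: the brightest was 1.21 times the median of all probe sets in the untreated array and the dimmest 0.27 times. Without detection calls such values cannot be told from an absent transcript.

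DKK1, the secreted antagonist that binds LRP5 and LRP6, had an intensity of 4257 in B1 and 3464 in B2, against 4579 in the untreated array. The log2 differences were -0.11 and -0.40, so DKK1 was lowest in B2. The mean was -0.25 (SD 0.21, n = 2), or 1.19-fold lower.

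**Figure D2:**
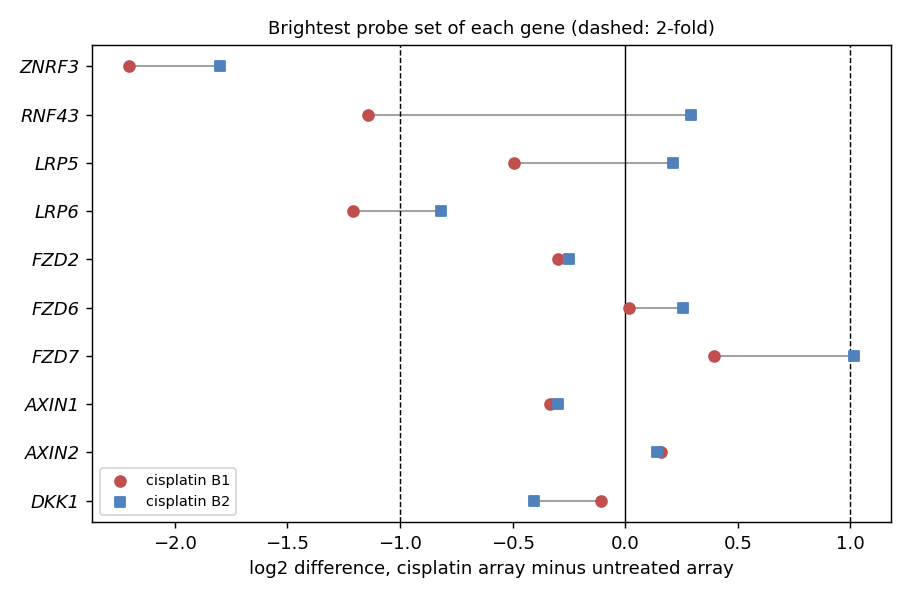
Log2 difference (horizontal axis) of the cisplatin arrays B1 (circles) and B2 (squares) from the untreated array for the brightest probe set of each gene, with dashed lines at 2-fold. ZNRF3 lies past 2-fold lower in both arrays, LRP6 and RNF43 in B1, and FZD7 past 2-fold higher in B2.

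Counted together, 1 of the 10 genes, ZNRF3, was at least 2-fold lower in both cisplatin arrays, and 0 were at least 2-fold higher. Among all 19775 genes 0.678% were lower and 0.142% higher by that measure. ZNRF3 was chosen from this contrast, so nothing is read from the count. LRP6 came next, at -0.82 in its nearer array. In any size, 5 members were lower in both arrays (ZNRF3, LRP6, FZD2, AXIN1 and DKK1) and 3 higher (FZD6, FZD7 and AXIN2), against 27.4% and 39.2% of all genes. The median log2 difference of the members was -0.32 in B1 and -0.05 in B2, against 0.03 and 0.05 over all genes. Limma's moderated test, fitted over all genes on the 3 arrays, called 0% of genes (0 of 19775 after Benjamini-Hochberg adjustment, smallest adjusted p = 0.969), and 565 genes had an unadjusted p under 0.05. It had 1 residual degree of freedom and assumed that the lone untreated array varied like the cisplatin pair.

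The members' differences also varied between the cisplatin arrays. On the brightest probe sets, B2 was above B1 in 8 of 10 members, the exceptions being AXIN2 and DKK1, against 51.9% of all genes. Not every other probe set followed its brightest. The other FZD2 probe set had 92.4 in B1 and 78.9 in B2, and a dimmer AXIN2 probe set had 16.2 and 23.3. The median of B2 minus B1 was 0.31 over the members and 0.01 over all genes. RNF43 and LRP5 changed side between the arrays, whereas for ZNRF3, LRP6 and FZD7 the arrays differed in size and not in side.

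**Figure D3:**
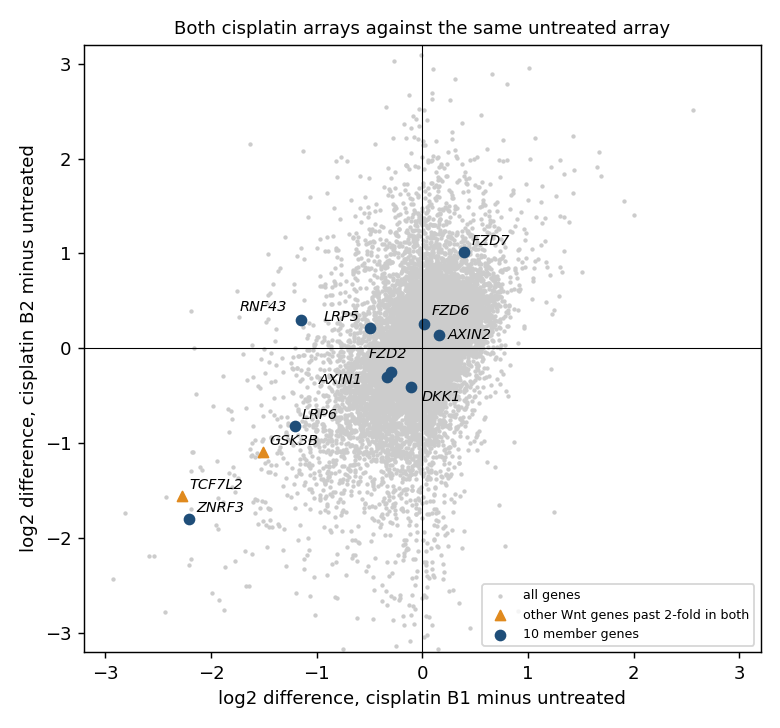
Log2 difference of B2 (vertical) against that of B1 (horizontal), each from the same untreated array, for all genes (grey; 66 lie outside the axes), the 10 members (blue circles) and the other Wnt genes past 2-fold in both arrays (orange triangles). ZNRF3 and TCF7L2 lie side by side at the lower left, and both differences share the untreated array.

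Genomic span, the distance from a gene's first to its last annotated base, was set beside the differences because low genes under cisplatin were long in these arrays. Spans came from the GRCh38.p14 annotation. ZNRF3 spans 174 kb, LRP6 151 kb and LRP5 150.9 kb. Genes with a mean log2 level of at least 6 were divided into deciles by span. In the longest decile the median of the mean log2 difference was -0.48, so ZNRF3 (-2.003) and LRP6 (-1.01) lay below it and LRP5 (-0.14), whose own level of 5.96 kept it out of the deciles, above it. ZNRF3 stood at rank 14 from the lowest among the 1020 genes of that decile and LRP6 at rank 204. LRP5 and LRP6 have nearly the same span and differed in direction in B2.

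The short members differed from each other as well. FZD2 spans 3.78 kb, FZD7 4.59 kb and DKK1 3.38 kb, and all belong to the shortest decile, whose median was 0.13. FZD7 lay above that value (0.71), and FZD2 (-0.27) and DKK1 (-0.25) lay below it. RNF43 (65.0 kb) and AXIN1 (65.3 kb) lay in a decile with a median of -0.16, with mean log2 differences of -0.42 and -0.31. FZD6 (34.4 kb) was at 0.14 where the median of its decile was 0.01. The part of span in any member's difference was not tested.

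**Figure D4:**
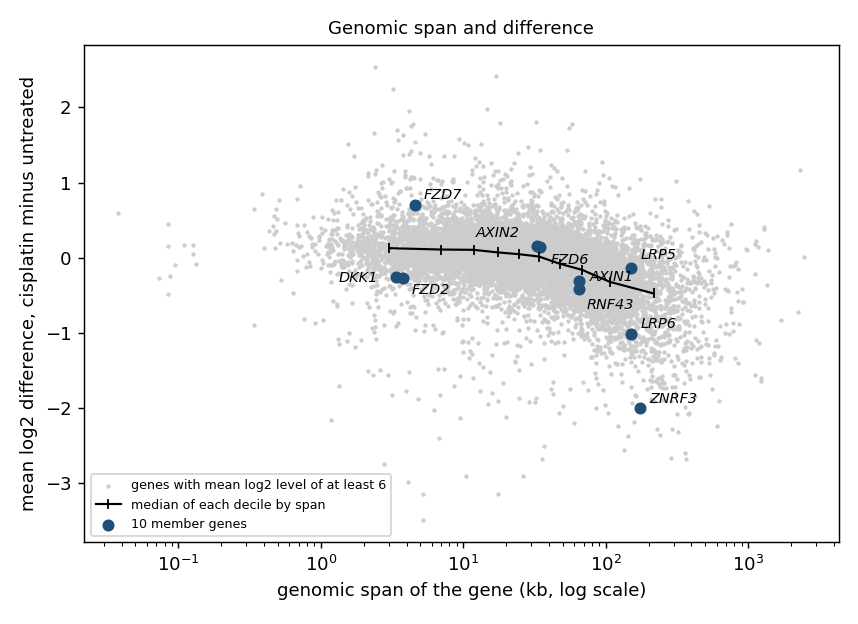
Mean log2 difference, cisplatin minus untreated (vertical), against genomic span in kb (horizontal, log scale) for genes with a mean log2 level of at least 6 (grey) and the 10 members (blue). The black line joins the medians of deciles by span and descends to -0.48 in the longest decile; ZNRF3 and LRP6 lie below it and LRP5 above.

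Among genes with a mean log2 level of at least 6, the 5 whose pair of differences lay nearest that of ZNRF3 were SHB, TCF7L2, SSH2, FNDC3B and PSD3. Likeness was the straight-line distance between pairs of log2 differences over the 3 arrays, with 10208 candidates. SHB, an SH2-domain adaptor, was nearest (distance 0.11), with an intensity of 73.7 in B1 and 104 in B2, against 336 untreated. TCF7L2 followed (0.26), then SSH2, a cofilin phosphatase (0.31), FNDC3B, a membrane protein with fibronectin repeats (0.32), and PSD3, an exchange factor for ARF6 (0.36). All 5 are long genes, from 153 kb for SHB to 558 kb for PSD3, a trait shared by most genes this low. In the longest decile by span 9.51% of genes were at least 2-fold lower in both arrays. The next decile had 1.47%, and the others 0 to 0.098%. The probe sets did not all go the same way: 7 of 7 for TCF7L2 and 3 of 3 for PSD3 lay below the untreated array on B1 and B2, but 5 of 6 for FNDC3B, 3 of 4 for SHB and 3 of 5 for SSH2.

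The rest of the pathway was described with 108 genes in 8 lists by role, of which 101 were measured and the others are not analysed here. At least 2-fold lower in both arrays were TCF7L2 and GSK3B, 2 of 101, and 0 were higher. Among all genes 0.678% were lower and 0.142% higher by that measure. In any size 30 were lower and 31 higher in both arrays, and 40 were split, beside 27.4% lower and 39.2% higher among all genes. The median log2 difference was -0.07 in B1 and 0.17 in B2.

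On the brightest probe set of each gene, a nuclear and a cytoplasmic component stood lowest. TCF7L2, a DNA-binding partner of beta-catenin, had an intensity of 172 in B1 and 284 in B2, against 833 in the untreated array, or 3.77-fold lower. Its 7 probe sets averaged -1.53 on the log2 scale. GSK3B, the kinase that phosphorylates beta-catenin for destruction, had 244 and 327, against 696 untreated, or 2.46-fold lower. For GSK3B 3 of 5 lay below the untreated array on B1 and B2, and the mean over all 5 was -0.51. Beta-catenin itself, CTNNB1, had 2892 and 3657, against 2981 untreated, log2 differences of -0.04 and 0.29.

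With the mean over all probe sets the order differed, and ROR1, a receptor for WNT5A singled out after its values were seen, stood lowest at -2.35 on the log2 scale. Its brightest probe set had an intensity of 35.2 in B1 and 26.6 in B2, against 45.4 untreated. The other probe sets had 24.0 and 10.8, against 133 untreated, and 15.1 and 5.41, against 98.0 untreated. All 3 were lower in both cisplatin arrays, and the 2 that were brighter in untreated cells differed most. ROR1 spans 407 kb.

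Of 20 cytoplasmic genes 9 were lower and 6 higher in both arrays, beside 27.4% and 39.2% of all genes. GSK3A, the other GSK3 gene, was higher in both arrays, unlike the brightest probe set of GSK3B, with 195 and 184, against 151 untreated. The casein kinase CSNK1A1, which primes beta-catenin for GSK3, was at -0.12 and 0.35 (mean over its 13 probe sets -0.11), and the tankyrase TNKS2, which marks AXIN for turnover, at -0.40 and -0.19 (mean over its 4 probe sets -0.06). Chosen after their values were seen, FBXW11 (log2 differences -0.87 and -1.40) and BTRC (-1.001 and -0.69), the F-box proteins that recognise phosphorylated beta-catenin, were both lower. For FBXW11 both probe sets lay below untreated on B1 and B2, with a mean of -0.92. For BTRC 4 of 5 did and 1 lay above, with a mean of -0.31, nearer 0 than its brightest. Also lower was CSNK1G1 (-0.77 and -0.83), a member of the casein kinase family that phosphorylates LRP6, in 4 of its 4 probe sets. RNF146, the ligase that destroys tankyrase-marked AXIN, was higher in both (0.44 and 0.36). These genes and GSK3A lie outside the rule for named genes.

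Of 11 nuclear genes 4 were lower and 5 higher in both arrays, beside 27.4% and 39.2% of all genes. The co-repressor TLE1 had an intensity of 318 and 280, against 590 untreated, a mean log2 difference of -0.98, but 3 of its 5 probe sets were lower and 2 higher in both arrays. PYGO2, a co-activator, was at 0.04 in each array.

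Upstream of the ligases, LGR4, an R-spondin receptor, had an intensity of 43.4 in B1 and 54.6 in B2, against 85.9 untreated. Its mean log2 difference was -0.82, and -0.33 over its 3 probe sets. LGR6, of the same receptor family, was at -0.12 and 0.28, and RSPO4, an R-spondin, at 0.46 and -0.37. Of the 7 R-spondin and LGR genes 2 were lower and 2 higher in both arrays, beside 27.4% and 39.2% of all genes. Only 1 of the 7 had a mean log2 level of at least 6, so most of these directions come from dim probe sets.

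Beside DKK1, 16 other inhibitors of reception were measured, 1 lower and 5 higher in both, against 27.4% and 39.2% of all genes. Their median was -0.02 for B1 and 0.29 for B2. Of the 16, 4 had a mean log2 level of at least 6, and the others are dim. DKK3, a relative of DKK1, had 841 in B1 and 2247 in B2, against 1062 untreated, so only B2 lay above the untreated value. KREMEN2, a DKK1 receptor, was at 0.32 and 0.68, and KREMEN1 at -0.39 and 0.74 on its brightest probe set. Of the 5 probe sets of KREMEN1, 2 were higher in both arrays and 0 lower. Of 11 other receptors 3 were lower and 3 higher in both arrays, beside 27.4% and 39.2% of all genes. RYK, a Wnt-binding receptor with an inactive kinase, was at -0.62 and -0.31. FZD1 was at -0.34 and 0.53 on its brightest probe set, but 2 of its 3 were higher in both arrays and their mean was 0.39. PTK7 was at -0.15 and 0.65 on its brightest, with a mean of 0.04 over both of its probe sets, 1 of them lower in both arrays.

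Of 11 textbook beta-catenin targets measured, 2 were lower, 4 higher and 5 split, beside 27.4% lower and 39.2% higher among all genes, and the median was -0.07 for B1 and 0.40 for B2. CCND1, cyclin D1, had 841 in B1 and 2102 in B2, against 1021 untreated. MYC had 1319 and 1871, against 1279 untreated, and CD44, a surface glycoprotein, 2359 and 1444, against 2692 untreated. Of its 13 probe sets, 11 lay below the untreated array on B1 and B2. For CCND1, as for DKK3, the array furthest from the untreated one was B2.

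**Figure D5:**
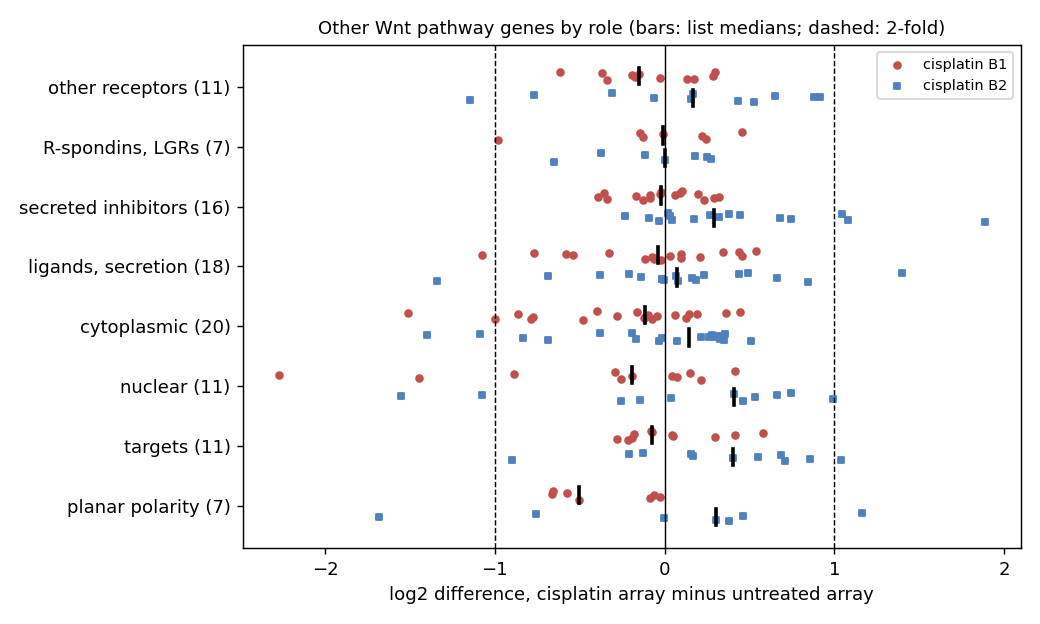
Log2 difference (horizontal axis) of B1 (circles) and B2 (squares) from the untreated array for the other Wnt pathway genes, 1 row a role with the number of genes measured, black bars at list medians and dashed lines at 2-fold. B2 medians lie above B1 medians in all 8 rows, and the 2 genes past 2-fold lower in both arrays are TCF7L2 and GSK3B.

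Promoter sequence was examined for the TCF/LEF word, since several of these genes are fed back on by beta-catenin. RefSeq's table of GRCh38.p14 promoters matched 4 of the 10 members, RNF43, LRP5, AXIN1 and DKK1. The 250 bases before the start were searched on both strands for CTTTGAA, with CTTTGAT as a second word searched in the same way, then CTTTGTA as a further word, and lastly CTTTGTT, which makes 4 words that cannot begin at the same base. One of the 4 members, DKK1, held any, and 12.0% of all 35116 promoters did. The DKK1 stretch, chr10:52314031-52314280 on the + strand, is shown as the member with a match, with its 2 words in capitals. They begin 95 and 76 bases before the start. The RNF43 stretch, chr17:58417535-58417784 on the - strand and 1 of 2 listed starts, is shown beside it as a ligase with none, also at its other start. A match is a run of letters and no evidence of binding.
DKK1: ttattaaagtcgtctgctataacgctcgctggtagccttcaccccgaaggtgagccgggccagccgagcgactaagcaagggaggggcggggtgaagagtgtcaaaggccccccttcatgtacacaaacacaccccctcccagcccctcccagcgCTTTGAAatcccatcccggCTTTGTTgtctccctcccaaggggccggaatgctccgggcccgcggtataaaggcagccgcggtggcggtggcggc
RNF43: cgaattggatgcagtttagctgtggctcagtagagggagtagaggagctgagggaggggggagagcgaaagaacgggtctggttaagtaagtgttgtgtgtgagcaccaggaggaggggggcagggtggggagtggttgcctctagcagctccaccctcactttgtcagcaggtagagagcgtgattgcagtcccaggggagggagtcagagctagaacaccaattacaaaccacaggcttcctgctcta
The DKK1 stretch is 62.8% G and C with 18 CG pairs, and the RNF43 stretch 56% with 4, against medians of 58% and 11 over all promoters. DKK1, with both words, was at -0.11 and -0.40 under cisplatin, and RNF43, with none, at -1.14 and 0.29.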

How the data were processed

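Values are intensities, 1 per probe set and array, that the authors deposited after RMA (background correction, normalization between arrays, probe set summary), per the submitters' processing notes. For RMA's version and for detection calls, no source used here gives anything. The deposited intensities ran from 3.03 to 19645 and are on a linear scale. They were taken to log2 with no pseudocount. The number of arrays limits the precision.

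Control probe sets (62) were not used. Of the others, 41091 carried 1 gene symbol, 1801 several, and 11721 were not listed. Symbols were updated by gene number to GRCh38.p14, and each gene was represented by its brightest probe set (highest mean log2 value). The fit was limma's (version 3.58.1 with lmFit and eBayes, under R 4.3.3, Benjamini-Hochberg, threshold 0.05). On simulated data its estimated differences were checked against those put in, and its power to call genes is not reported here. A size rule counted genes at least 2-fold from untreated in both cisplatin arrays, in 1 direction.

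The members and lists were chosen with earlier results of these data known. Named were all members, the other pathway genes past the size rule, up to 3 genes of highest mean level in each list, and the 5 nearest ZNRF3. Outside this rule, and chosen after their values were seen, are CDH1, KRT14, KRT5, PTPRC, CDH5, ROR1, CELSR2, CELSR3 and the cytoplasmic genes marked in the text. Alternatives covered scaling, pseudocount, probe set choice, filter, variance prior, size threshold and each cisplatin array alone. No sample columns were left unused.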

Additional observations from a re-analysis of the deposited data

How the results depend on the processing

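Limma called 0 genes under each setting (smallest adjusted p 0.959 to 1), which with 1 residual degree of freedom says nothing about stability. ZNRF3 was at least 2-fold lower under every setting run, with log2 differences from -2.20 to -1.80. Of 55 single member values under an alternative, 53 kept their sign. The exceptions were RNF43 (0.29) and LRP5 (0.21) without cisplatin replicate 1, that is, in B2 alone. In size, 11 of the 55 moved by over 1 SD of the cisplatin pair, which values from 1 array alone cannot do by construction. The mean over probe sets of the 5 members with 1 probe set is not counted. With the mean of all probe sets LRP6 was at -0.59 and 38 genes were past the size rule lower, against 134. At 1.5-fold, 189 genes were higher, 524 lower and 2 members lower (ZNRF3 and LRP6); at 3-fold, 4 and 24 genes. With 1 cisplatin array left out, genes past the rule ranged from 47 to 591 higher and from 299 to 890 lower (28 and 134 with both arrays), members lower from 1 to 3 (ZNRF3, RNF43 and LRP6 in B1 alone), members higher from 0 to 1 (FZD7 in B2 alone), and the members' median difference from -0.32 to -0.054, against -0.26. Counts with 1 array are larger by construction, since 1 array has to pass. Dim probe sets, AXIN2 above all, limit what can be said. No paired analysis was possible because the untreated group has 1 array and its label carries no replicate number.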

Other observations

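Outside the receptor step, the planar polarity genes, which steer cells through Frizzleds without beta-catenin, had their median at -0.50 (log2 difference) for B1 and at 0.30 for B2. On their brightest probe sets the 7 measured were below the untreated array in B1, as were 44.8% of all genes. Of these, CELSR3 (-0.03), PRICKLE1 (-0.06) and CELSR2 (-0.09) lay almost at the untreated value. For CELSR3 1 of 2 probe sets was higher in both arrays and 1 lower, and for CELSR1 1 of 3 was higher and 1 lower. VANGL1, a core polarity membrane protein, had an intensity of 295 in B1 and 260 in B2, against 439 in the untreated array, and 3 of its 4 probe sets were lower in both arrays. PRICKLE1, its cytoplasmic partner, had 221 and 71.8, against 230 untreated, so only B2 was far from the untreated value. CELSR1, a polarity cadherin, had 170 and 313, against 241 untreated, on its brightest probe set. Over its 3 probe sets the mean log2 difference was 0.11. The source of this spread between the cisplatin arrays was not tested.

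Of 18 genes for Wnt ligands and their secretion, 6 were lower and 6 higher in both cisplatin arrays, beside 27.4% and 39.2% of all genes. Only 7 of the 18 had a mean log2 level of at least 6, and the others are dim. Their median was -0.04 for B1 and 0.07 for B2. WNT7B, an epithelial ligand, had an intensity of 160 in B1 and 209 in B2, against 273 untreated, and both of its probe sets were lower in both arrays. WNT7A had 86.7 and 153, against 130 untreated. WLS, the carrier that brings Wnt proteins to the surface, had 341 and 621, against 345 untreated, and was thus higher in B2 alone on its brightest probe set.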
